A study of Mus musculus with 6 samples.

Results

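Mitochondrial ribosomal proteins are the proteins of the mitoribosome, the ribosome inside mitochondria that translates the few messenger RNAs made from mitochondrial DNA. They are encoded in the nucleus, made on cytosolic ribosomes and imported, and each particle needs them in fixed proportion with the mitochondrial ribosomal RNAs. The large subunit (Mrpl genes) holds the centre that joins amino acids, and the small subunit (Mrps genes) reads the codons. All products of the mitoribosome in mammals are subunits of the respiratory chain and ATP synthase, and acute myeloid leukemia cells are known to depend on mitochondrial translation. The members were the genes whose symbol is Mrpl or Mrps followed by a number and at most a letter a, b or c. This rule used no measured value, but it was set with earlier results of these data known. There were 77 of 46983 genes in the count table, 48 of the large and 29 of the small subunit, and all 77 passed the filter on low counts that left 13705 genes tested.

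Poly-A RNA came from mouse leukemia cells of 2 genotypes on the C57BL/6J strain, with 3 libraries of Alox5-/- cells and 3 of WT cells, all untreated. Alox5 encodes 5-lipoxygenase, which starts leukotriene synthesis. In both genotypes stem and progenitor cells sorted for c-Kit and Sca-1 and against lineage markers had been infected with a retrovirus carrying MLL-AF9, a human leukemia fusion oncogene, so WT cells carry the oncogene too. The tissue label was bone marrow; no source used here gives the ages or the animals behind each library, so p-values reflect the spread between these libraries alone.

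Gene counts per library were 28985597 to 38695948. Alox5 was called lower, at 64.2 ± 1.87 CPM in Alox5-/- cells against 105 ± 1.87 CPM in WT cells (mean ± SD, n = 3 each; CPM, the normalised count, is a gene's count relative to the TMM-scaled library size), and remained detected in every Alox5-/- library; gene-level counts do not show which part of the gene was deleted. Of 8 marker genes of the sorted progenitor and its leukemia (9 gene IDs, as Itgam has a pair), 4 were called higher and 2 lower, with a summed level of 1269 CPM in Alox5-/- cells against 1166 CPM in WT cells and log2 fold changes of -0.54 to 0.91. Among them Kit (called lower) stood at 136 CPM in Alox5-/- cells against 160 CPM in WT cells, Cd34 (called higher) at 227 CPM in the Alox5-/- cells and 177 CPM in the WT cells, while Ly6a, which encodes Sca-1, averaged only 0.763 CPM over the Alox5-/- libraries and 1.06 CPM over the WT libraries. Markers of B cells (3 genes, summed 0.0642 to 0.205 CPM per Alox5-/- library, 0.0337 to 0.314 CPM per WT library) and of erythroid cells (4 genes, 0.578 to 0.774 CPM per Alox5-/- library, 0.539 to 0.804 CPM per WT library) were near 0, and the 3 T and NK cell genes Cd3e, Cd3g and Ncr1 were at 0 counts. The 3 megakaryocyte markers Itga2b, Gp9 and Pf4 summed to 2.46 to 3.18 CPM per Alox5-/- library against 4.81 to 5.14 CPM per WT library. Of the 2 that were tested, Itga2b was called lower (log2 fold change -1.11) and the other was not called (0.03). Pf4 was near 0. The 4 stromal and endothelial markers summed to 194 to 199 CPM per Alox5-/- library against 174 to 175 CPM per WT library, nearly all of it Pecam1 (called higher, 0.18), with Col1a1, Cdh5 and Cxcl12 each below 1 CPM. Their part in the results on the mitoribosome was not tested. In bulk RNA, fewer cells of a type and less RNA per cell cannot be told apart.

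Transcripts of the mitoribosome were lower in Alox5-/- cells more often than higher, by small amounts. Of the 77 members, 33 fell, 6 rose and 38 did not pass the test (edgeR quasi-likelihood test, Benjamini-Hochberg adjusted p below 0.05 over all genes tested). Across all genes tested 27% were called lower and 26.8% higher, 53.8% in all, so that members were called at about the background rate and the tilt was in the direction. In the large subunit 19 members fell and 4 rose, 39.6% and 8.33% of its 48 genes. In the small subunit 14 fell and 2 rose, 48.3% and 6.90% of 29. Whether called or not, 59 of the 77 had a negative log2 fold change. The median log2 fold change, Alox5-/- over WT, was -0.11 in the large and -0.13 in the small subunit, beside 0.0001 over all genes tested. Scaling by library totals alone, which left 4326 genes called higher and 2959 lower over the whole table, gave 18 lower and 7 higher in the large subunit and 10 lower and 2 higher in the small, with medians of -0.068 and -0.088 against 0.043 over all genes.

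The changes were small, and the groups were free of overlap about as often as over all genes tested, both directions together. Of the 39 called members, 38 changed by less than 1.5-fold, and the median size of a change was 0.13 on the log2 scale over the 77 members against 0.19 over all genes tested. In 37 members the 3 Alox5-/- values were all below the 3 WT values, in 7 all above, and in 33 the groups overlapped. The 38 members that did not pass the test had log2 fold changes between -0.17 (Mrps36) and 0.22 (Mrpl23), 7 of them with groups free of overlap. Over all genes tested the groups were free of overlap in 60% (30.2% below, 29.7% above). Among called members that changed at least 1.2-fold, 17 were lower and 1 was higher, where 13% and 17.7% of all genes tested were.

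**Figure D1:**
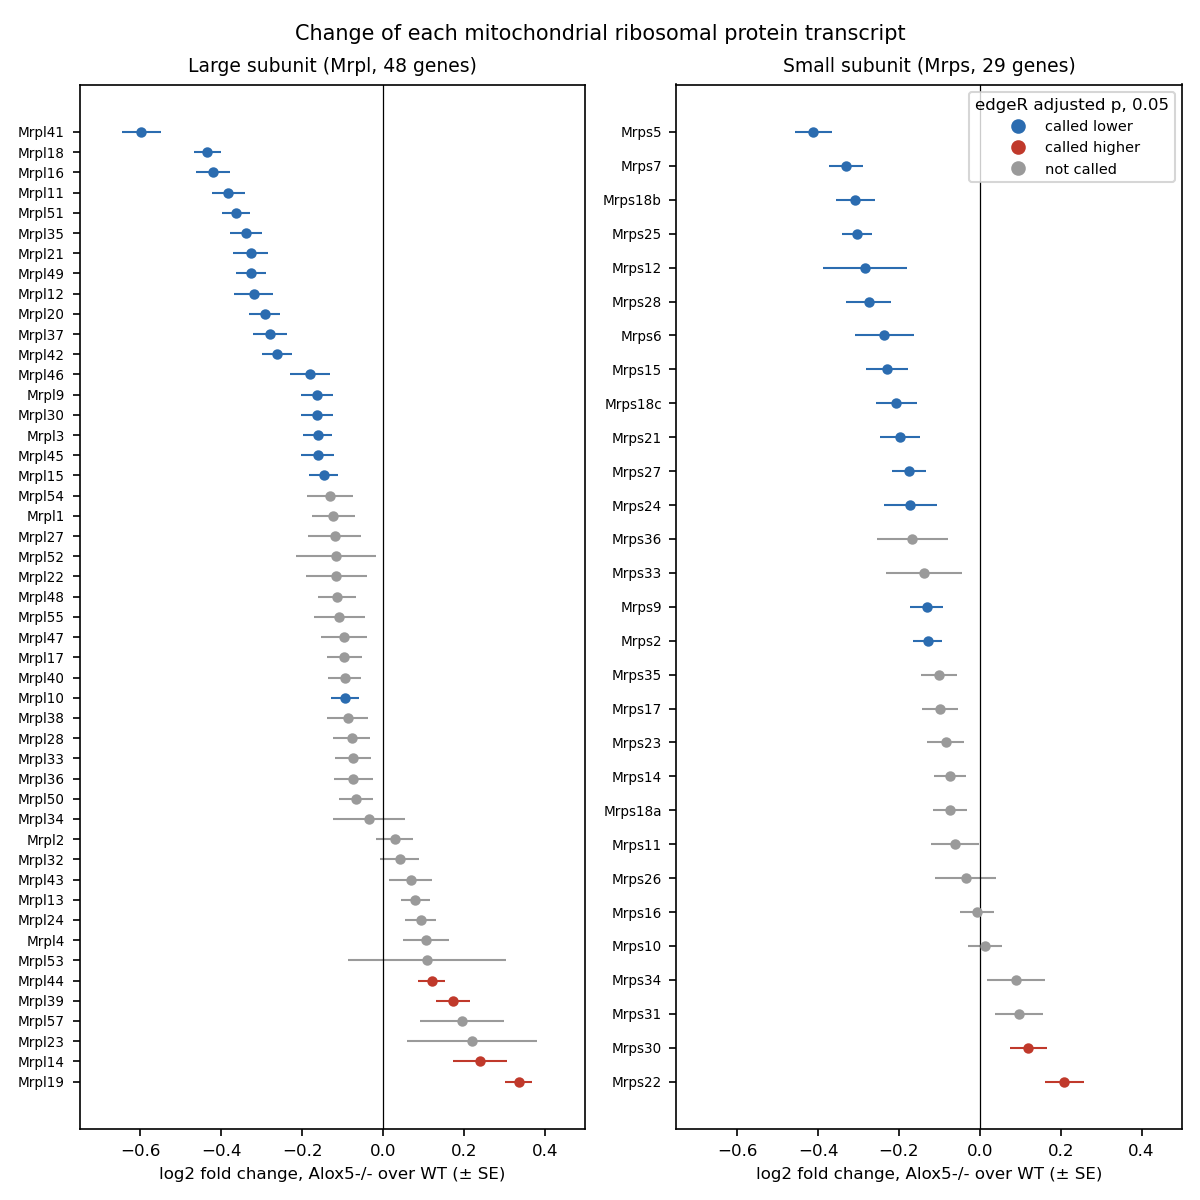
Log2 fold change of each member, Alox5-/- over WT, with its SE (horizontal bars), in the large subunit (48 genes, left) and small subunit (29 genes, right). Most points lie left of 0: 19 and 14 members were called lower (blue) and 4 and 2 higher (red).

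Summed over each subunit, the libraries separated by genotype. The 48 large-subunit transcripts added up to 2570, 2647 and 2560 CPM in Alox5-/- cells, against 2796, 2801 and 2829 CPM in WT cells. The 29 small-subunit transcripts added up to 1174, 1215 and 1169 CPM in Alox5-/- cells, against 1296, 1295 and 1311 CPM in WT cells. No Alox5-/- library reached a WT library in either sum, with Alox5-/- replicate 2 nearest to WT. The ratio of the group means was 0.923 in the large and 0.912 in the small subunit. The TMM-scaled sum over all genes of the table also separated by genotype, with a ratio of 0.971. As a share of unscaled gene counts, the family took 0.380%, 0.390% and 0.380% in Alox5-/- libraries and 0.403%, 0.402% and 0.408% in WT libraries. These sums are descriptions and were given no test.

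**Figure D2:**
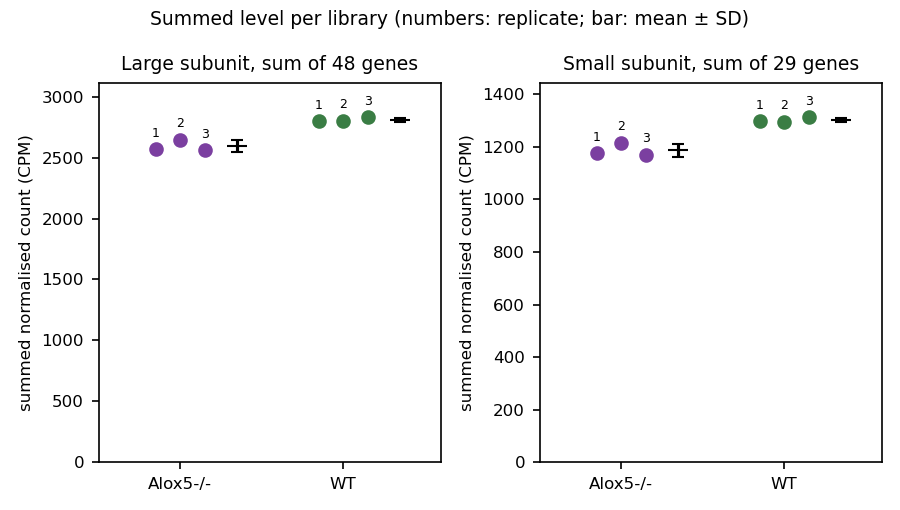
Summed normalised count (CPM) of the large-subunit and small-subunit members per library, with mean ± SD of 3 libraries beside the dots. Alox5-/- libraries span 2560 to 2647 and 1169 to 1215 CPM, below WT libraries at 2796 to 2829 and 1295 to 1311 CPM.

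The 8 largest falls included 6 large-subunit genes. Mrpl41, a protein found only in mitochondrial ribosomes and reported in human cells to bind BCL2, had 34.0, 31.9 and 33.1 CPM in Alox5-/- libraries against 50.4, 52.2 and 47.5 CPM in WT libraries. The groups were far apart (log2 fold change -0.60, SE 0.05; edgeR adjusted p = 9.61e-08), and it was the only member past 1.5-fold. Its gene (ENSMUSG00000036850.4) lies on the minus strand of chromosome 2 at 24974117 to 24975098 (mm10). Mrpl18, of the uL18 family in the ribosome's central protuberance, had 109, 110.3 and 108 CPM in Alox5-/- cells against 145, 152 and 145 CPM in WT cells. It is among the more abundant members and lay lower in every Alox5-/- library (log2 fold change -0.43, SE 0.03; edgeR adjusted p = 5.4e-08). Mrpl16, the counterpart of bacterial L16, had 37.2, 36.8 and 36.8 CPM in Alox5-/- cells against 48.3, 50.4 and 49.6 CPM in WT cells (log2 fold change -0.42, SE 0.04; edgeR adjusted p = 8.16e-07). All 3 groups of WT values lay well above their Alox5-/- values.

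Further large-subunit genes of this group carry different parts of the particle. Mrpl11, which builds the base of the stalk where translation factors dock, had 38.4, 39.3 and 38.4 CPM in Alox5-/- cells against 51.1, 50.4 and 49.96 CPM in WT cells (log2 fold change -0.38). Mrpl51, a protein without a bacterial counterpart, had 89.0, 89.1 and 85.8 CPM in Alox5-/- cells against 111, 117 and 111 CPM in WT cells (-0.36). Mrpl35, the counterpart of bacterial L35, had 45.2, 44.1 and 45.4 CPM in Alox5-/- cells against 55.5, 57.2 and 57.8 CPM in WT cells (-0.34). In none of the 3 did a value of 1 group reach the other. Mrpl12, whose copies form the stalk itself and which in human cells is reported to bind the mitochondrial RNA polymerase, had 101, 116 and 101 CPM in Alox5-/- cells against 134, 127 and 136 CPM in WT cells (log2 fold change -0.32, SE 0.05; edgeR adjusted p = 4.62e-05). Here Alox5-/- replicate 2 stood closer to WT than its fellows. Mrpl10, which anchors Mrpl12, was at 74.8 ± 1.25 CPM in Alox5-/- cells against 79.9 ± 0.31 CPM in WT cells (SD, n = 3 each); its log2 fold change of -0.09 was the smallest among the called members (edgeR adjusted p = 0.0304). The call was lost in 10 of 15 other fits, among them without Alox5-/- replicate 2 or 3 or WT replicate 1 or 3 (adjusted p 0.0627 to 0.126).

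In the small subunit the largest falls were in Mrps5 and Mrps7. Mrps5, of the uS5 family near the path of the messenger RNA and known from worms for an effect of its knockdown on lifespan, had 39.2, 37.0 and 37.2 CPM in Alox5-/- cells against 48.6, 52.3 and 50.1 CPM in WT cells. That is a log2 change of -0.41 (SE 0.05; edgeR adjusted p = 2.54e-06). Mrps7, a primary binder of the small ribosomal RNA in the head of the subunit, had 52.6, 56.1 and 52.3 CPM in Alox5-/- cells against 69.1, 64.8 and 68.4 CPM in WT cells (log2 fold change -0.33, SE 0.04; edgeR adjusted p = 1.06e-05). Both were clear of overlap. Mrps12, of the uS12 family that guards decoding accuracy, was called with less certainty. It had 21.6, 30.3 and 21.6 CPM in Alox5-/- cells against 32.7, 27.6 and 29.03 CPM in WT cells, so that Alox5-/- replicate 2 lay inside the WT range. The log2 fold change was -0.28 (SE 0.10; edgeR adjusted p = 0.0319), and -0.46 without Alox5-/- replicate 2. The call was lost without Alox5-/- replicate 1 or 3 or WT replicate 1 or 3 (adjusted p 0.0560 to 0.144) and in 3 other fits.

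Only 6 members rose. Mrpl19, a large-subunit protein of the bL19 family at the face between the subunits, had 174, 184 and 180.0 CPM in Alox5-/- cells against 145, 143 and 139 CPM in WT cells. Its log2 fold change was 0.34 (SE 0.03; edgeR adjusted p = 9.04e-07), the only rise of at least 1.2-fold. In the annotation 36.0% of its exon bases overlap Gcfc2, a gene that was called higher with 36.0 ± 2.08 CPM in Alox5-/- cells against 14.9 ± 0.56 CPM in WT cells (log2 fold change 1.28), and the part of shared reads in the rise of Mrpl19 was not tested. Mrpl14, which carries the anti-association factor Malsu1 until the subunits join, had 18.3, 17.5 and 18.0 CPM in Alox5-/- cells against 14.9, 14.1 and 16.4 CPM in WT cells (log2 fold change 0.24, SE 0.07; edgeR adjusted p = 0.00664). Mrps22, a small-subunit protein specific to mitochondria in which human mutations cause mitochondrial disease, had 29.5, 30.0 and 30.4 CPM in Alox5-/- cells against 25.8, 25.9 and 26.0 CPM in WT cells (log2 fold change 0.21). All 3 were clear of overlap, Mrps22 with the tightest groups.

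The remaining rises were small. Mrpl39, whose fold resembles a threonyl-tRNA synthetase, had 61.3, 63.3 and 64.8 CPM in Alox5-/- cells against 58.5, 53.6 and 55.8 CPM in WT cells (log2 fold change 0.17). Mrpl44, which has a ribonuclease III-like fold, had 92.4, 95.2 and 93.4 CPM in Alox5-/- cells against 85.9, 87.2 and 85.4 CPM in WT cells (0.12). Mrps30, which despite its symbol sits in the large subunit in structures of the mammalian particle, had 50.2, 55.5 and 50.4 CPM in Alox5-/- cells against 47.9, 48.2 and 47.5 CPM in WT cells (0.12, edgeR adjusted p = 0.0376). The groups did not overlap in any of them, but the call of Mrps30 was lost without Alox5-/- replicate 2 (log2 fold change 0.08, adjusted p = 0.154), without any of the 3 WT replicates in turn (adjusted p 0.0514 to 0.0999), and in DESeq2.

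**Figure D3:**
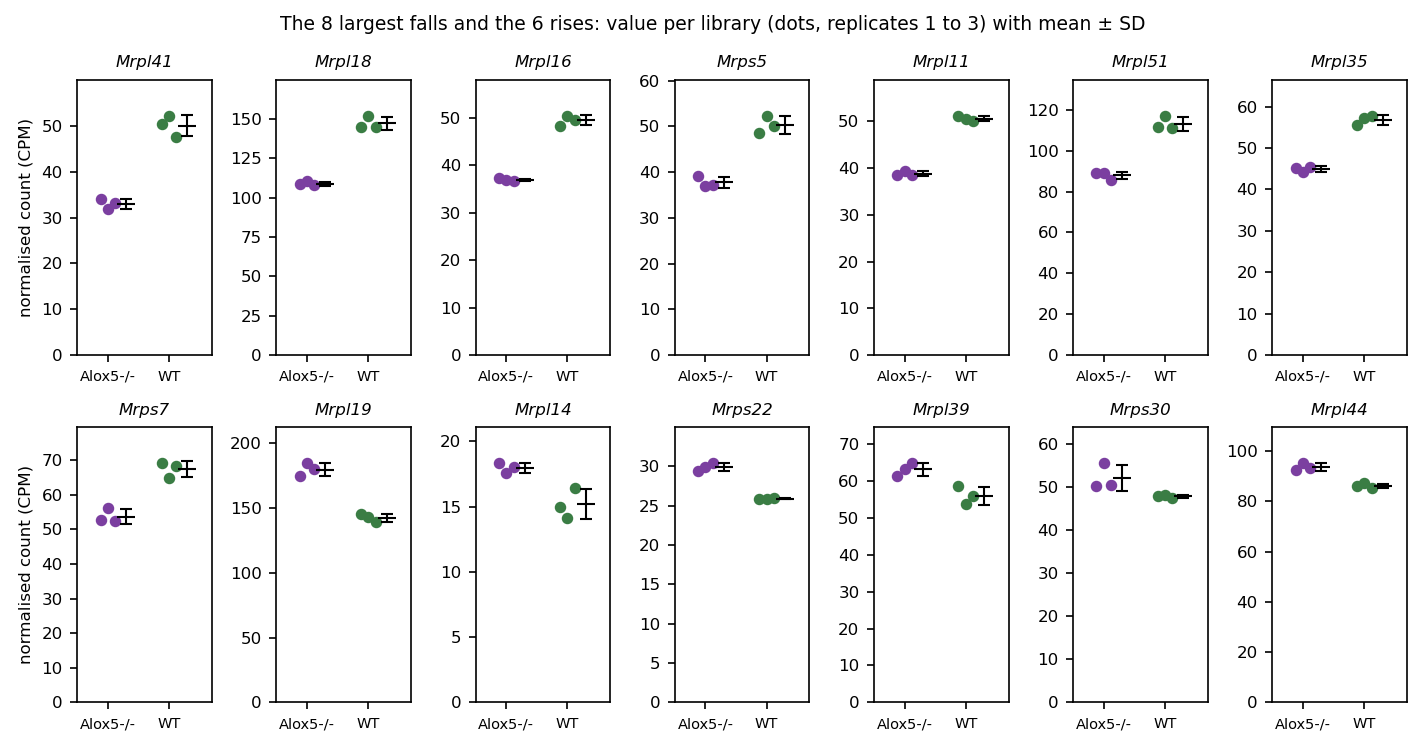
Normalised count (CPM) in each library (dots, replicates 1 to 3) with mean ± SD for the 8 members with the largest falls and the 6 that rose, axes from 0. In each panel the Alox5-/- dots lie wholly below or wholly above the WT dots, from Mrpl41 (33.0 against 50.03 CPM on average) to Mrpl19 (179 against 142 CPM).

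Promoters were read from RefSeq windows of 250 bases before to 50 after a gene's start on GRCm38.p6, the assembly behind mm10, which matched 68 of the 77 members by symbol (74 windows). Regulators known to act on nuclear genes for mitochondria include NRF1, which binds a palindrome made of GCGCA and its reverse complement, the ETS family factor GABP, which binds CCGGAAGT, and YY1, which binds AAGATGGC. These letters were searched on both strands. Of the 14 members with the largest falls and the rises, 13 had a window (Mrpl19 had none and was not searched) and 6 held a match, and their windows are shown with the match in capitals. Mrpl18 and Mrpl51 (both lower) and Mrps22 (higher) hold the ETS letters, Mrpl35 and Mrps7 (both lower) the YY1 letters and Mrpl39 (higher) the NRF1 letters.
Mrpl18: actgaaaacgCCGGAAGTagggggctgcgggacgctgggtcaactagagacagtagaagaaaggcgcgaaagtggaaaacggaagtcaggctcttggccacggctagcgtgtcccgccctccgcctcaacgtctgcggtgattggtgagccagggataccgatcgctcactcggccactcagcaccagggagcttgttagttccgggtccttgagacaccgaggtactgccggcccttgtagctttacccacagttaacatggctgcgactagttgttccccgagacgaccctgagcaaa
Mrpl51: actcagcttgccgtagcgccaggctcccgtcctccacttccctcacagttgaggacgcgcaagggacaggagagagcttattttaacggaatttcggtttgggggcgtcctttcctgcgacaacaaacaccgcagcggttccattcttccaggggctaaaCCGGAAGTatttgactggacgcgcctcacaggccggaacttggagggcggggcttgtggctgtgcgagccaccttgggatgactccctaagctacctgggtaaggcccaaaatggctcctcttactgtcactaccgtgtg
Mrpl35: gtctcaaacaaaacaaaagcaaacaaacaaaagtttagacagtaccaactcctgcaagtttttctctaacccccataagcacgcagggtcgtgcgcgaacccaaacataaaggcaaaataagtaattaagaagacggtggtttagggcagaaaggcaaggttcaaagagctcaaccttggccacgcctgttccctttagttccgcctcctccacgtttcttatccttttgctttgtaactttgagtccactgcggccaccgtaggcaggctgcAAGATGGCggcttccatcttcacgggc
Mrps7: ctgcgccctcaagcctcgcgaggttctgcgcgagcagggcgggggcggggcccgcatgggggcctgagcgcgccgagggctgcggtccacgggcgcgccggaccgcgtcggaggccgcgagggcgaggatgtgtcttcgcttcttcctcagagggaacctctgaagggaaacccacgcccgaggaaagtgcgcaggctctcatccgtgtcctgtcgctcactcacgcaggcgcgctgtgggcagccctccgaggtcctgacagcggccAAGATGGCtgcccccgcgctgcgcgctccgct
Mrps22: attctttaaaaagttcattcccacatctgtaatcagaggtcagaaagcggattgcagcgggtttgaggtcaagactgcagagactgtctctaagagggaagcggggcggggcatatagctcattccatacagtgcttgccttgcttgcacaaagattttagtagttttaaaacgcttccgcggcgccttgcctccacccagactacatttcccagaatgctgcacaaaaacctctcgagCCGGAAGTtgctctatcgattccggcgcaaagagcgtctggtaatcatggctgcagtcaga
Mrpl39: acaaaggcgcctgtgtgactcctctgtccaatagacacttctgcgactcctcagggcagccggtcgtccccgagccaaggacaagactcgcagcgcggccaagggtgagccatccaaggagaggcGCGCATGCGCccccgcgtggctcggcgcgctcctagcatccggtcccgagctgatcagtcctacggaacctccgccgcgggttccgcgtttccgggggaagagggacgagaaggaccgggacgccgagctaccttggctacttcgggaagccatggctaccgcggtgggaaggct

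Relative to the RefSeq start, counted as 0, the ETS match began at -240 in Mrpl18, at -90 in Mrpl51 and at -11 in Mrps22. The YY1 match began at 23 in Mrpl35 and at 18 in Mrps7, just past the RefSeq start, and the NRF1 match at -125 in Mrpl39. The GENCODE annotation, used for gene positions, can place a start elsewhere. There Mrpl18 starts at 12916345 (minus strand), Mrpl51 at 125191801 (plus), Mrpl35 at 71826969 (minus) and Mrpl39 at 84735742 (minus). Each of these starts lies upstream of the RefSeq window, so by GENCODE the matches in these genes fall past the start. The windows are Mrpl18 at chr17:12916042-12916341 (minus strand), Mrpl51 at chr6:125191950-125192249 (plus), Mrpl35 at chr6:71823735-71824034 (minus), Mrps7 at chr11:115603890-115604189 (plus), Mrps22 at chr9:98601630-98601929 (minus) and Mrpl39 at chr16:84735195-84735494 (minus). Over the whole family the YY1 letters stood in 12 of 74 windows (16.2%), beside 4.52% of the 11939 windows of genes tested and 2.75% of all 32851 windows. They were in 8 of the 31 windows of members that fell, 4 of the 38 of members not called and 0 of the 5 of members that rose. With only 5 windows, the 0 says little. Of windows of all genes called lower 5.53% held them, and of those called higher 3.07%. A link between these letters and the changes was not tested. The ETS letters were also in 12 windows (16.2%), beside 8.21% of windows of genes tested and 3.89% of all, in 5 of 31 windows of members that fell and 1 of 5 of members that rose. The NRF1 letters were in 3 windows (4.05%), beside 2.14% and 0.971%. The E-box CACGTG, bound by MYC and others, was in 7 (9.46%), beside 10.1% and 7.15%. At least 1 of the NRF1, ETS and YY1 letters occurred in 33.8% of member windows and 14.2% of windows of genes tested. No window was tested for binding, and a match is a run of letters only.

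Mitoribosomal proteins divide into those inherited from the bacterial ancestor and those added in mitochondria. Of 47 members with a bacterial homolog 24 fell and 2 rose (51.1% and 4.26%). Of 27 specific to mitochondria 9 fell and 4 rose (33.3% and 14.8%), beside 27% lower and 26.8% higher over all genes tested. The small subunit's 18 bacterial homologs held 12 falls and 0 rises (edgeR; also 0 at an unadjusted p below 0.05, by DESeq2 and by limma-voom), with a median log2 fold change of -0.18 and summed levels of 735 ± 13.0 CPM in Alox5-/- cells against 827 ± 4.63 CPM in WT cells (SD, n = 3 each). Its 10 mitochondria-specific members held 2 falls and 2 rises (20% each), with a median of -0.06. The 12 falls were 66.7% of the 18 bacterial homologs. Subunits here follow the symbol, so the 18 include Mrps18a (not called) and the 2 rises include Mrps30. Structures place both proteins in the large subunit. In the large subunit the classes were alike in the share that fell. Its 29 bacterial homologs held 12 falls and 2 rises (41.4% and 6.90%), and its 17 specific members 7 falls and 2 rises (41.2% and 11.8%). No test was made of the difference between the classes. Mrps36, Mrpl55 and Mrpl57 were put in neither class, and 0 of the 3 was called by edgeR, at an unadjusted p below 0.05, by DESeq2 or by limma-voom.

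Some symbols do not say where the protein sits. The 3 paralogs of bacterial S18 occupy different places, Mrps18a in the large subunit and Mrps18b and Mrps18c in the small. Mrps18b fell, with 34.2, 35.7 and 34.4 CPM in Alox5-/- cells against 40.9, 43.4 and 44.6 CPM in WT cells (log2 fold change -0.31). Mrps18c fell too, with 26.0, 26.0 and 27.3 CPM in Alox5-/- cells against 29.5, 30.9 and 31.0 CPM in WT cells (-0.21). Mrps18a was not called, with 51.5, 50.5 and 49.7 CPM in Alox5-/- cells against 54.1, 50.9 and 54.4 CPM in WT cells (-0.07, edgeR adjusted p = 0.154). The 2 small-subunit paralogs thus passed the test and the large-subunit one did not, a difference between them that was not itself tested. Mrps36, now known as a part of the alpha-ketoglutarate dehydrogenase complex, was not called at 7.73 ± 0.16 CPM in Alox5-/- cells against 8.63 ± 0.91 CPM in WT cells (-0.17, edgeR adjusted p = 0.125). Mrps36 has near-identical pseudogene copies, so its values are less certain. With Mrps18a and Mrps30 counted in the large subunit and Mrps36 left out, 19 of 50 large-subunit members fell and 5 rose (38% and 10%). Of 26 small-subunit members 14 fell and 1 rose (53.8% and 3.85%), beside 27% lower and 26.8% higher over all genes tested.

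A further 6 mitoribosomal proteins have symbols outside the Mrp pattern. Ict1, a large-subunit protein that releases stalled peptides, rose, with 38.4, 42.3 and 37.3 CPM in Alox5-/- cells against 34.1, 31.8 and 33.7 CPM in WT cells (log2 fold change 0.24, edgeR adjusted p = 0.00146). Ptcd3, a small-subunit protein at the messenger RNA entry, fell, with 158, 149.6 and 149 CPM in Alox5-/- cells against 172, 163 and 170.0 CPM in WT cells (-0.14). Aurkaip1, also of the small subunit, fell by the small log2 change of -0.10 (82.1 ± 0.70 CPM in Alox5-/- cells against 87.7 ± 3.22 CPM in WT cells, SD, n = 3 each). The other 3, Dap3, Chchd1 and Gadd45gip1, had overlapping groups and log2 fold changes of -0.01, -0.03 and -0.09, none called, with directions that turned under other scalings or when 1 library was left out.

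The members also varied between libraries of 1 genotype. Alox5-/- replicate 2 stood farthest from its group over the 77 members, with an SD of 0.085 in log2 deviation, where the other libraries had 0.050 to 0.074. Mrps12, Mrpl57, Mrpl52 and Mrps34 were highest there: Mrpl57 had 31.8, 44.97 and 33.3 CPM in Alox5-/- cells against 34.1, 28.4 and 33.4 CPM in WT cells, and Mrpl52 had 10.9, 14.1 and 10.7 CPM in Alox5-/- cells against 14.1, 12.1 and 12.5 CPM in WT cells. Neither was called. Without Alox5-/- replicate 2, 22 large-subunit members fell and 5 rose, and 15 small-subunit members fell and 1 rose. That fit called 3474 genes lower and 3575 higher over the whole table. Deviations of single libraries moved with the GC content of the transcript, most in WT replicate 2 (Spearman rho -0.52 over the 77 members, which share libraries, and -0.47 over all genes tested). For the log2 fold change of the members rho was -0.003 with GC content and 0.02 with transcript length. These are descriptions across genes.

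**Figure D4:**
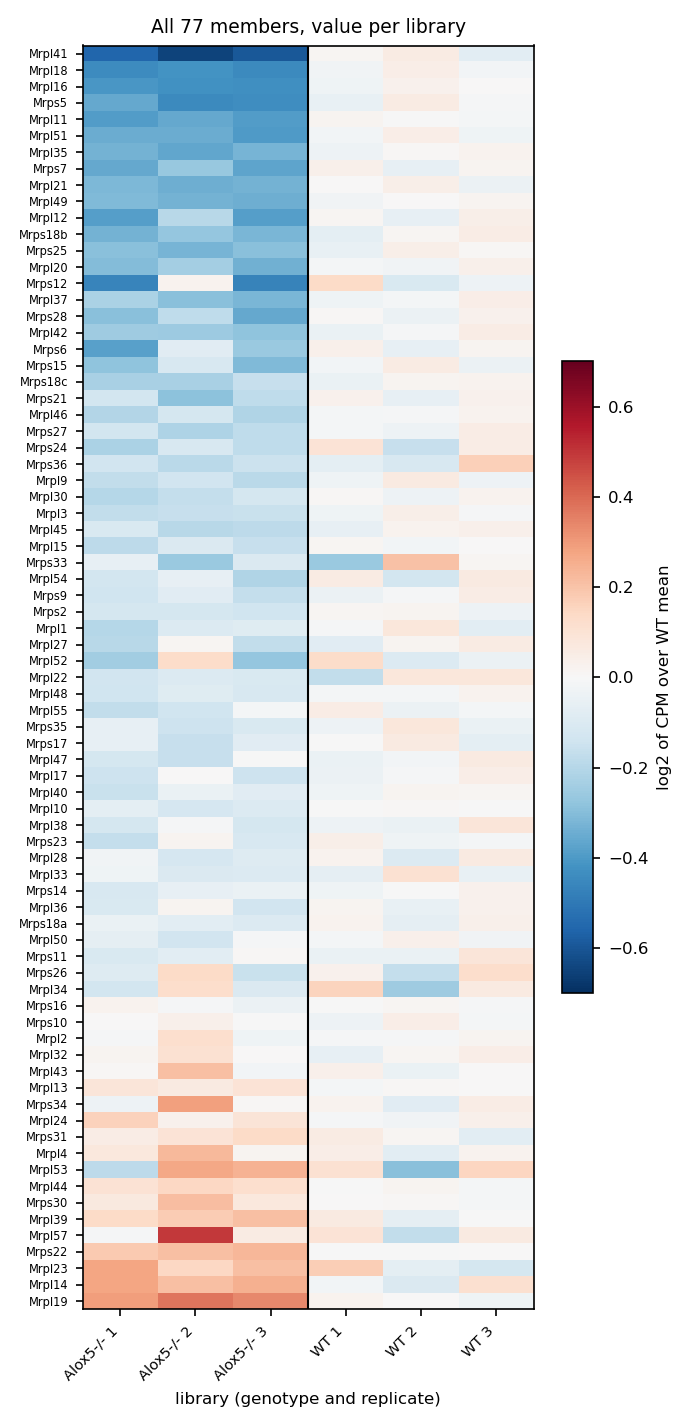
Log2 of CPM over the WT mean for all 77 members (rows, ordered by fold change) in the 6 libraries (columns, Alox5-/- left of WT). The upper rows are blue in all 3 Alox5-/- libraries down to Mrpl20, then Mrps12, Mrpl52 and Mrpl57 show Alox5-/- replicate 2 apart from its fellows, and red rows close the panel at Mrpl19.

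Members differed widely in level while sharing a particle. Per kilobase of transcript and as a mean of the 6 libraries, Mrpl33 was highest at 190.1 CPM per kb, followed by Mrpl20 (112 CPM per kb), Mrpl18 (105 CPM per kb) and Mrpl42 (104 CPM per kb). Of these, Mrpl20, Mrpl18 and Mrpl42 fell, while Mrpl33, with 91.3, 87.0 and 87.1 CPM in Alox5-/- cells against 89.3, 100.4 and 89.9 CPM in WT cells, had a log2 fold change of -0.07 and was not called. The lowest were Mrpl53 (1.92 CPM per kb), Mrpl23 (2.31 CPM per kb), Mrpl48 (7.34 CPM per kb) and Mrpl47 (8.35 CPM per kb), none of them called. Mrpl53 had 1.12, 1.54 and 1.51 CPM in Alox5-/- cells against 1.37, 1.04 and 1.41 CPM in WT cells, and 88.0% of its exon bases overlap other genes. Mrpl23 had 1.80, 1.64 and 1.72 CPM in Alox5-/- cells against 1.67, 1.41 and 1.36 CPM in WT cells, or 299 reads in all, while its pseudogene copy Mrpl23-ps1, identical over 540 aligned bases, took 5403. The level of Mrpl23 is therefore uncertain. Level and change were loosely related across members (Spearman rho -0.16 between CPM per kb and log2 fold change, beside -0.19 over all genes tested).

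Near-identical copies and overlapping genes touch part of the family. By alignment of transcripts, 18 members have an annotated pseudogene copy of at least 95% identity over at least 200 bases, 22 copies in all. Reads that fit more than 1 place were left uncounted, 24.37 to 24.79% of all reads per library, so values of these members are less certain. Copies of Mrps5 (Gm13328, log2 fold change -0.40) and of Mrpl51 (Gm14017, -0.36) were called lower like the members themselves. A copy of Mrps33 (Gm5776, -0.27) was called lower where Mrps33 was not (-0.14). The same held for a copy of Mrps36 (Mrps36-ps1, -0.37), where Mrps36 was not called (-0.17). Among the 59 members with no such copy, 25 fell and 6 rose. Exons of 18 members overlap another gene by more than 10% of their bases, and among the other 59 members 22 fell and 4 rose. Over all genes tested 27% were called lower and 26.8% higher. Mrps25, a mitochondria-specific small-subunit protein, overlaps Nr2c2 in 69.8% of its bases. It fell (log2 fold change -0.30) while Nr2c2 was called higher (0.14).

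Many members share a start region with a gene on the other strand. The start lay within 1000 bases of the start of a protein-coding gene on the opposite strand for 33 of the 77 members (42.9%), beside 1995 of 11589 protein-coding genes tested (17.2%). Of the members with such a partner 16 fell and 3 rose (48.5% and 9.09%), and of the other 44, 17 fell and 3 rose (38.6% and 6.82%). Among the 31 partners tested, 7 were higher, 12 lower and 12 not called, beside 26.8% higher and 27% lower over all genes tested. Both genes were called in 9 pairs, in the same direction in 8 of them: Mrpl18 with Tcp1, a subunit of the cytosolic chaperonin (log2 fold change -0.43 and -0.18), Mrpl51 with Ncapd2 of condensin (-0.36 and -0.16), Mrps7 with Gga3 (-0.33 and -0.32), Mrps12 with Sars2, the mitochondrial seryl-tRNA synthetase (-0.28 and -0.35), Mrpl37 with Cyb5rl (-0.28 and -0.51), Mrps18b with Ppp1r10, Mrpl30 with Mitd1, and the rising Mrpl14 with Tmem63b (0.24 and 0.36). Mrps5 and Zfp661 went opposite ways (-0.41 and 0.22). No such count was made over all pairs of genes tested, so 8 of 9 has no background share beside it. Exons of Mrpl18 (10.1% of bases), Mrps7 (11.9%, with Mif4gd included) and Mrpl14 (11.2%) overlap those of their partners. With strandedness not given, the part of shared reads in these pairs was not tested. Across the 31 pairs, in which Mrps11 and Mrpl46 enter from both sides, the rho of the log2 fold changes was 0.18. Mrps11 and Mrpl46 are each other's partner, with starts 412 bases apart; Mrpl46 fell (-0.18) and Mrps11 was not called (-0.06). Members lie on 17 chromosomes, most on chromosome 11 (10 members).

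Genes that build and serve the mitoribosome were called no more often than genes at large. Of 28 assembly and ribosomal RNA modification genes 7 rose (25%) and 6 fell (21.4%), beside 26.8% higher and 27% lower over all genes tested, with a median log2 fold change of 0.03. Fastkd2, an RNA-binding protein needed for the large subunit, fell to 34.9 ± 1.13 CPM in Alox5-/- cells against 45.8 ± 1.47 CPM in WT cells (-0.39), and Wbscr16, an assembly factor also called Rcc1l, fell by the same measure (-0.39). Ngrn, which acts with them in large-subunit assembly, rose (0.35), as did Mrm1, a methyltransferase of the large ribosomal RNA (0.37). Of 16 translation factors 4 rose and 4 fell (25% each, again near the share over all genes tested), and 5 in all were called without WT replicate 1. The elongation factors Gfm1 (104, 105 and 105 CPM in Alox5-/- cells against 125, 133 and 124 CPM in WT cells, log2 fold change -0.29) and Tufm (13.3, 14.6 and 14.7 CPM in Alox5-/- cells against 18.6, 17.6 and 17.4 CPM in WT cells, -0.33) fell. Lrpprc, which stabilises mitochondrial messenger RNAs, fell (-0.19), and Guf1, a translational GTPase, rose (0.17).

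Of 24 genes for mitochondrial transcription and RNA handling, 5 rose (20.8%) and 6 fell (25%), beside 26.8% and 27% of all genes tested. Tfam, which packages mitochondrial DNA and starts its transcription, rose to 72.5 ± 1.53 CPM in Alox5-/- cells against 61.0 ± 2.72 CPM in WT cells (log2 fold change 0.25, edgeR adjusted p = 0.000107). Polg, the mitochondrial DNA polymerase (-0.29), Fastkd3 (-0.36) and Elac2, which trims the ends of mitochondrial transfer RNAs (-0.27), fell, and the RNA polymerase Polrmt was not called (-0.07). Of 15 genes on mitochondrial DNA 9 were tested, in this poly-A selected RNA, of which 4 fell (44.4%, beside 27% of all genes tested) and 0 rose (edgeR; also 0 at an unadjusted p below 0.05, by DESeq2 and by limma-voom): mt-Nd4 (-0.11), mt-Nd2 (-0.20), mt-Nd1 (-0.21) and mt-Cytb (-0.22). Of 11 tested regulators of mitochondrial biogenesis 3 rose and 2 fell (27.3% and 18.2%). The transcription factor Nrf1 fell to 69.7 ± 1.16 CPM in Alox5-/- cells against 81.2 ± 0.99 CPM in WT cells (-0.22), and the coactivator Pprc1 fell (-0.32). Myc, a driver of ribosome and mitochondrial genes in many cells, rose to 352 ± 19.0 CPM in Alox5-/- cells against 292 ± 12.2 CPM in WT cells (0.27). Gabpb1, a subunit of GABP, and Nfe2l2 rose as well (both 0.27), while Gabpa, Esrra and Ppargc1b were not called (0.03, 0.10 and 0.04).

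The gene families most like the mitoribosome had medians nearer to 0. Of 79 tested cytosolic ribosomal proteins 21 fell and 1 rose, with a median log2 fold change of -0.06. Their 22 calls dropped to 13 without Alox5-/- replicate 3 and to 14 without WT replicate 1. Of 79 nuclear-encoded respiratory chain and ATP synthase subunits 17 fell and 11 rose, with a median of -0.02. The share called lower was 26.6% and 21.5%, beside 42.9% of the 77 mitoribosomal members and 27% of all genes tested. Whether called or not, 61 of the 79 cytosolic ribosomal proteins had a negative log2 fold change, beside 59 of the 77 mitoribosomal members. Among the 79 respiratory subunits 46 did. The tilt in direction was thus shared with the cytosolic family, where the falls were smaller. Called falls of at least 1.2-fold numbered 2 in each of these families, beside 17 among the mitoribosomal members. Rps27l (-0.41) and Rpl36al (-0.33) were the 2 cytosolic ones. Ndufa4 fell to 234 ± 3.51 CPM in Alox5-/- cells against 300.4 ± 9.75 CPM in WT cells (-0.36), and Atp5g1 also fell (-0.41). The largest change among the respiratory subunits was the rise of Cox6a2, a muscle isoform at a low level, with 8.56 ± 0.97 CPM in Alox5-/- cells against 2.97 ± 0.42 CPM in WT cells (1.54). The families were described by counts and medians, and the difference between them was not tested.

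**Figure D5:**
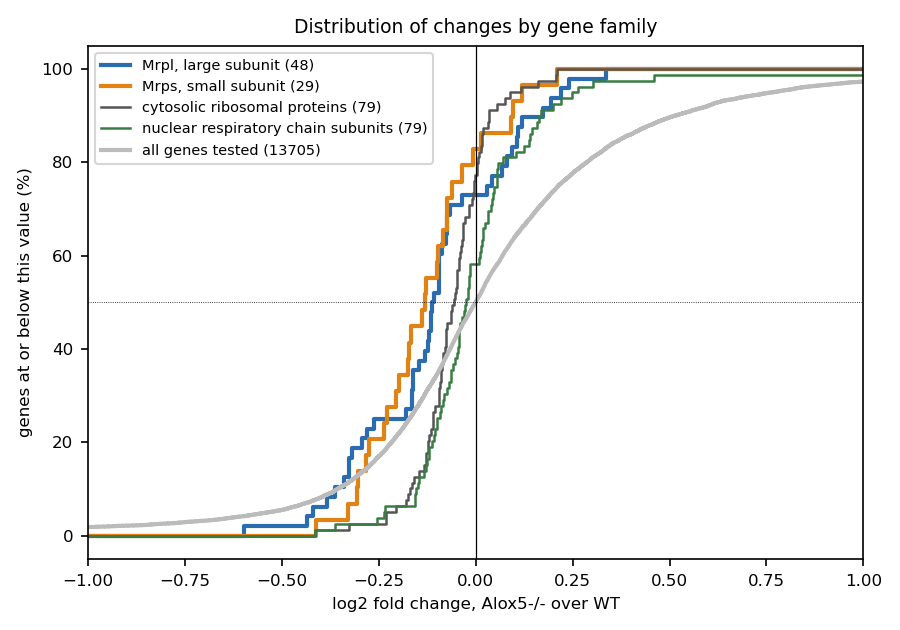
Cumulative share of genes (percent, vertical) at or below each log2 fold change, Alox5-/- over WT (horizontal), for the large and small mitoribosomal subunits, cytosolic ribosomal proteins, nuclear-encoded respiratory chain subunits and all 13705 genes tested. Both mitoribosomal curves cross 50% left of 0, at medians of -0.11 and -0.13, and all families are narrower than the curve of all genes.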

How the data were processed

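The authors deposited raw read counts per gene for 6 poly-A libraries; HTSeq, DESeq2 and the build mm10 come from the submitters' processing notes. No source used here gives the aligner, tool versions, gene annotation or strandedness. RNA was taken from cells sorted into a lysis reagent and amplified with the SMARTer kit, per the labels' protocols. Genes took 59.95 to 60.86% of reads; 5 summary rows that name no gene (24.37 to 24.79% multi-mapped, the rest unassigned or unaligned) were left out. From the counts, edgeR 4.0.16 in R 4.3.3 gave TMM-scaled CPM and the quasi-likelihood test between genotypes without covariates, on genes passing its default filter, with Benjamini-Hochberg adjustment over 13705 genes and a threshold of 0.05. SE came from the coefficient and its F statistic. The test was also tried on simulated counts. A count of 0 allows up to 3 counts, 0.0775 to 0.1035 CPM, which covers counting error only, as PCR copies are not separate molecules.

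Positions, lengths, overlaps and starts came from GENCODE vM21, copies from blastn 2.17.0, promoters from RefSeq. The members, gene lists and tests were chosen with earlier results of these data known. Members named are the called ones with the 8 largest falls and rises (only 6 rose), the Mrps18 paralogs, Mrps30, Mrps36, Mrpl12, and the 4 highest and 4 lowest per kilobase; elsewhere up to 4 called genes of each list by p, plus fixed regulators. Mrpl10, Mrps12, Mrpl52, Mrpl57, Mrps25, Mrps33, the partners, copies and Gcfc2 were named after their values were seen. Alternatives were DESeq2 1.42.0, limma-voom (limma 3.58.1), other scalings and filters, a robust fit, a minimum fold of 1.2, a replicate block and leaving out each library.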

Additional observations from a re-analysis of the deposited data

How the results depend on the processing

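Of the 39 called members, 32 kept their call in all 15 refits (27 lower, 5 higher). Calls were lost in some for Mrps12 (7 refits), Mrps24 (9), Mrpl10 (10), Mrps30 (5), Mrps9 (3), Mrps2 (1, library totals) and Mrps6 (1, without Alox5-/- replicate 1, adjusted p = 0.0782). Mrps24 lost its call without Alox5-/- replicate 1 or 3 or WT replicate 1 or 3 (adjusted p 0.0937 to 0.170), and Mrps9 without Alox5-/- replicate 3 or WT replicate 3 (0.0692 to 0.0731). A minimum fold of 1.2 left 12 large-subunit calls (11 lower, 1 higher), 6 small-subunit calls (6 lower, 0 higher) and 4210 calls over all genes (2424 higher, 1786 lower); in the other lists it left 7 assembly genes, 2 translation factors, 6 transcription and RNA genes, 6 respiratory subunits, 2 cytosolic ribosomal proteins, and 0 each of the mitochondrial DNA genes and of the mitoribosomal proteins with other symbols. Library totals gave 7 higher in the large subunit, 14 cytosolic ribosomal calls, medians of -0.068 (large) and -0.088 (small) and ratios of summed CPM of 0.951 and 0.940; upper-quartile scaling gave medians of -0.083 and -0.10 and a ratio of 0.941 for the large subunit. These scalings moved the median of all genes by at most 0.043. Higher calls in the small subunit came to 1 by DESeq2 and 1 by place in the structure, and to 1 to 2 when a library was left out. Leaving out a library gave 5 to 8 calls among translation factors (5 without WT replicate 1) and 13 to 29 among cytosolic ribosomal proteins (13 without Alox5-/- replicate 3, 14 without WT replicate 1). The cause of these moves was not tested, beyond the stricter call set by a minimum fold.

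The direction turned in 7 of the 77 members in at least 1 refit, each of them not called by edgeR: Mrps26 (log2 fold change -0.12 to 0.032 over the refits), Mrpl34 (-0.14 to 0.047), Mrps16 (-0.024 to 0.036), Mrps10 (-0.0036 to 0.056), Mrpl2 (-0.010 to 0.072), Mrps34 (-0.0082 to 0.15) and Mrpl53 (-0.0092 without WT replicate 2, up to 0.25 without Alox5-/- replicate 1). Among the other genes named it turned in Gadd45gip1 (0.0018 without Alox5-/- replicate 3, down to -0.23 without Alox5-/- replicate 2), Chchd1 (0.011 by library totals, 0.0018 without WT replicate 2, down to -0.075 without WT replicate 3), Dap3 (0.013 by upper quartile, 0.028 by library totals, 0.0017 with a stricter filter) and Ppargc1b (-0.020 without Alox5-/- replicate 2, -0.032 without WT replicate 2, up to 0.11 without WT replicate 3). Same-numbered libraries of the genotypes did not deviate together (r = -0.023, -0.077 and 0.022 over all genes tested), so the numbers were not taken as pairs; a replicate block gave 22 large-subunit calls, 15 small-subunit calls and 7029 over all genes. Depth limits mainly Mrpl53 and Mrpl23, with SE of 0.19 and 0.16.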
